A study of Homo sapiens with 4 samples.

Results

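The genes of the proteasome were followed in NOMO-1 cells, an established line from a human acute leukaemia with monocytic features, given short hairpin RNAs against the zinc-finger transcription factor ZFX. They comprised 47 of the 18417 genes that the arrays measured under a single gene symbol. A gene was taken when its symbol began with PSMA, PSMB, PSMC, PSMD, PSME or PSMF followed by digits, or was PSMG1, PSMG2, PSMG3, PSMG4, POMP or ADRM1. The 47 genes were represented by 53 probe sets, and where a gene had several, the brightest on average stood for it. PSMC5, PSMD7 and PSMD13 were not analysed here. PSMB11, the thymus-specific catalytic subunit, lay between 5.40 and 5.51 on the log2 scale, under the limit of 6.70 below which genes were left out as dim, so 46 genes were tested.

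The ZFX knock-down group held 1 array for the hairpin ZFX-SH1 and 1 for ZFX-SH3, both delivered by lentivirus, and its genotype label was ZFX knock-down. The control group held 1 array of cells with a GFP lentivirus (LEN-GFP) and 1 of cells with a scrambled hairpin (SCR), with the genotype label ZFX wild type. All cells were transduced at a multiplicity of infection of 1, and RNA was taken 48 h after selection. No construct was repeated and nothing in the labels names separate cultures, so p-values cover only the spread among these arrays, which mixes construct and technical variation, and the number of arrays limits the precision of every value below. Each array holds the RNA of a whole culture, so fewer cells of one state and less RNA per cell cannot be told apart.

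ZFX had log2 intensities of 10.13 on SH1 and 10.12 on SH3, against 10.65 on LEN-GFP and 10.66 on SCR, a difference of -0.53 (SE 0.10, limma adjusted p = 0.797). Both hairpin arrays were below both controls by a like amount, -0.52 on SH1 and -0.54 on SH3 against the control mean. After adjustment over all genes tested ZFX passed with SH3 alone, although its SE was the same (0.12) with each hairpin. By array signal, from 1 probe set, ZFX stood at 69.3% of its control level. No other measure of ZFX RNA or protein was at hand. How far ZFX was lost is thus not known, which limits the group as a model of ZFX loss. Array medians lay between 184.8 and 189.8 intensity units. Of the markers expected in a myeloid line, 7 of 7 analysed (LYZ, MPO, ITGAM, CD14, CSF1R, SPI1 and CEBPA) were above the dim limit. Of 12 markers of T, B, erythroid, epithelial and fibroblast cells 7 were under that limit, among them CD3D, CD3E, MS4A1 and EPCAM. Above it were CD79A, HBB, KRT18, COL1A1 and COL1A2, which differed by -0.14 (COL1A2) to 0.18 (HBB) on the log2 scale, and their part in the results was not tested.

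The proteasome is the protease that degrades ubiquitin-tagged proteins in the cytosol and nucleus. Its 20S core is a stack of alpha rings, which gate the entry, and beta rings, which carry the proteolytic sites. A 19S cap binds ubiquitin chains and unfolds the substrate: its base holds the ATPases and its lid the deubiquitinase. In blood cells, and in other cells after interferon, 3 immune subunits (PSMB9, PSMB10 and PSMB8) replace the constitutive catalytic subunits PSMB6, PSMB7 and PSMB5 and change the peptides offered to class I molecules. Dedicated chaperones assemble the core and the base.

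PSMB9, an immune subunit, had the highest knock-down difference of the 46 tested genes, at 164.2% of its control level. PSMD2 of the cap had the lowest, at 65.3%, a value that rests largely on SH3. The 19S cap lay slightly lower, with a median log2 difference of -0.17 over 15 genes. The constitutive 20S core, with PSMA8 counted in it, stood at -0.11 over 15 genes. The median over all 12892 genes tested was -0.0029. Without PSMA8, a testis-specific gene, the core stood at -0.07, and without PSMD2 the cap stood at -0.16. Against the controls the cap stood at -0.14 with SH1 and -0.15 with SH3. The core stood at -0.0040 with SH1 and -0.14 with SH3, so cap and core parted on SH1 alone, which was not tested. None of the 46 genes passed limma's test of knock-down against control at an adjusted p of 0.05 (smallest adjusted p = 0.797), and 0% of all genes did (0 of 12892). Before adjustment, p was under 0.05 for 3 of 46 genes, beside 6.04% of all tested genes. PSMB9 was the higher one, beside 2.78% of all tested genes, and PSME4 and PSMG4 the lower ones, beside 3.26%.

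Small shifts to the lower side were common among the 46 genes. The groups did not overlap on 22 of them, beside 37.2% of all tested genes. The hairpin arrays both lay below both controls on 18 of 46 genes (39.1%), where 19% of all tested genes did so. They both lay above both controls on 4 of 46 genes (8.70%), PSMA2, PSMB9, PSMD4 and PSME1, where 18.2% of all tested genes did so. The log2 gap between the groups was 0.39 for PSMB9 but only 0.0022 for PSMA2, 0.0033 for PSMD4 and 0.0039 for PSME1. By sign alone 33 of 46 were lower, beside 50.8% of all tested genes. Between the controls the members also departed from all genes: SCR was below LEN-GFP on 19 of 46 (41.3%), beside 58.6%. Most of the knock-down shifts were small. Past a log2 difference of 0.3 lay 1 higher (PSMB9) and 3 lower (PSMD2, PSME4 and PSMA8), beside 6.18% and 7.26% of all tested genes. Proteasome genes were thus no more often past that limit than all genes.

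**Figure D1:**
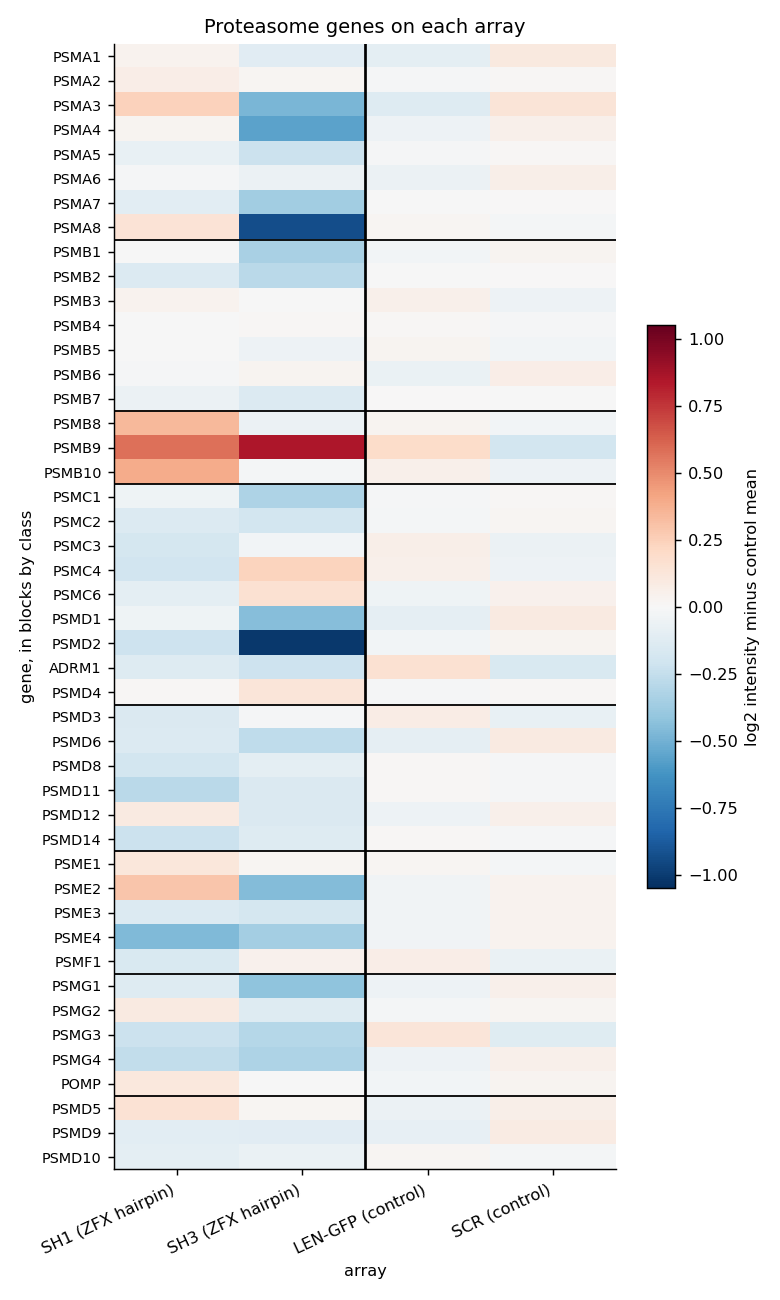
Log2 intensity of each tested proteasome gene on the 4 arrays, minus its mean over the 2 control arrays (colour), with genes in blocks by class and the ZFX hairpin arrays left of the controls. PSMB9 is higher on SH1 (0.58) and SH3 (0.85), and PSMD2 (-1.01) and PSMA8 (-0.93) are lowest on SH3.

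PSMB9 encodes the immune subunit that takes the place of PSMB6 and lies in the class II region of the major histocompatibility complex, on chromosome 6 from 32854192 to 32859851 (GRCh38.p14). It had log2 intensities of 10.91 on SH1 and 11.18 on SH3, against 10.52 on LEN-GFP and 10.14 on SCR. Both hairpin arrays were above both controls, and the controls themselves lay 0.38 apart. The difference was 0.72 (SE 0.18, 95% interval 0.26 to 1.18, unadjusted p = 0.0104, limma adjusted p = 0.797). It was 0.90 without LEN-GFP and 0.53 without SCR. Its 3 probe sets held identical values and were counted once.

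The other immune subunits did not separate the groups. PSMB8, which replaces PSMB5, had log2 intensities of 9.17 on SH1 and 8.77 on SH3, against 8.85 on LEN-GFP and 8.80 on SCR. PSMB10, which replaces PSMB7, had 9.49 on SH1 and 9.07 on SH3, against 9.15 on LEN-GFP and 9.05 on SCR. For both genes SH1 stood above the controls, while SH3 lay just under them for PSMB8 and between them for PSMB10, so the groups overlapped. Their knock-down differences were 0.14 (SE 0.17) for PSMB8 and 0.18 (SE 0.17) for PSMB10, and neither passed in limma (adjusted p = 0.882 and 0.855). Without SH1 they were -0.06 and -0.02.

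The constitutive partners differed less. PSMB6, the caspase-like subunit, had log2 intensities of 12.36 on SH1 and 12.39 on SH3, against 12.30 on LEN-GFP and 12.43 on SCR. PSMB7, the trypsin-like subunit, had 11.40 on SH1 and 11.32 on SH3, against 11.47 on LEN-GFP and 11.46 on SCR. PSMB5, the chymotrypsin-like subunit and main target of proteasome inhibitors, had 10.40 on SH1 and 10.35 on SH3, against 10.43 on LEN-GFP and 10.38 on SCR. The knock-down differences were 0.0079 for PSMB6 (95% interval -0.22 to 0.23), -0.11 for PSMB7 (-0.34 to 0.13) and -0.03 for PSMB5 (-0.30 to 0.25). These intervals include 0 and do not show that the subunits were unaffected.

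Each immune subunit was also set against the subunit that it replaces, as the log2 ratio relative to the mean ratio of the controls. PSMB9 against PSMB6 stood at 0.59 on SH1 and 0.83 on SH3, against 0.26 on LEN-GFP and -0.26 on SCR. PSMB10 against PSMB7 stood at 0.46 on SH1 and 0.12 on SH3, against 0.05 on LEN-GFP and -0.05 on SCR. PSMB8 against PSMB5 stood at 0.34 on SH1 and -0.0039 on SH3, against -0.0027 on LEN-GFP and 0.0027 on SCR. The ratio was above both controls on both hairpin arrays for the first 2 pairs and overlapped the controls for the last. No test of these ratios is read, since 2 against 2 arrays allow no two-sided exact permutation p under 0.333.

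**Figure D2:**
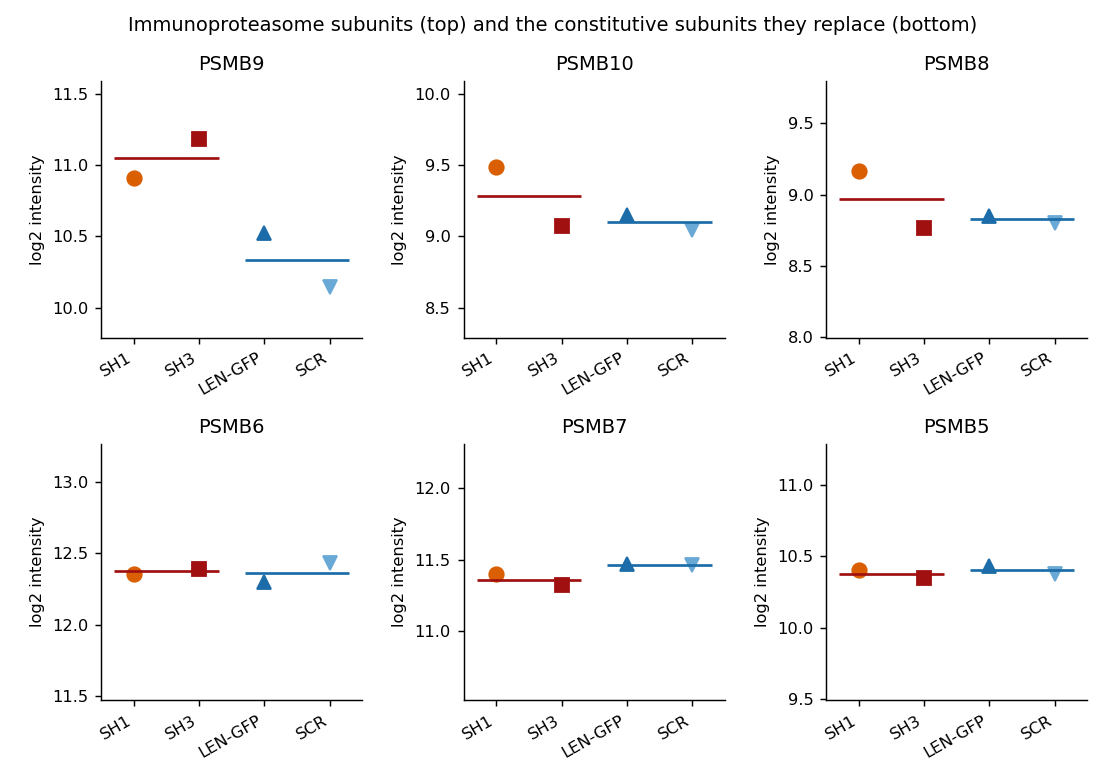
Log2 intensity on each array (ZFX hairpins left, controls right, bars for group means) of the 3 immune subunits in the top row and, under each, the constitutive subunit that it replaces. PSMB9 is high on both hairpin arrays, PSMB10 and PSMB8 are above both controls on SH1, and the bottom row differs by at most 0.11 between group means.

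TAP1, which encodes a subunit of the peptide transporter that feeds class I molecules, starts 488 bases from PSMB9 on the opposite strand. It had log2 intensities of 10.07 on SH1 and 10.68 on SH3, against 9.96 on LEN-GFP and 9.49 on SCR, a difference of 0.65 (SE 0.27). TAP2, its partner in the transporter, had 9.43 on SH1 and 9.47 on SH3, against 9.13 on LEN-GFP and 8.85 on SCR, a difference of 0.46 (SE 0.14, unadjusted p = 0.0243). Both hairpin arrays were above both controls for each of these genes, and SCR was the lowest array for each, as for PSMB9.

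The 200 bases before the annotated start of PSMB9, of its neighbour TAP1 and of 3 other genes are shown, since these genes share the interferon-linked regulation of the immunoproteasome or stood lowest among the activators (PSME4). Sequences are from RefSeq (GRCh38.p14), read 5′ to 3′ on the strand of the gene, with matches to the searched motifs in capitals.
PSMB9, chr6:32853992-32854191, plus strand: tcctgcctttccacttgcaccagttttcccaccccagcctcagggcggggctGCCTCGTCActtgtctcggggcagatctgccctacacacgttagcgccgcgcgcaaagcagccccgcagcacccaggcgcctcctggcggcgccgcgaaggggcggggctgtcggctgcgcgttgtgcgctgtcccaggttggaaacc
TAP1, chr6:32853705-32853904, minus strand: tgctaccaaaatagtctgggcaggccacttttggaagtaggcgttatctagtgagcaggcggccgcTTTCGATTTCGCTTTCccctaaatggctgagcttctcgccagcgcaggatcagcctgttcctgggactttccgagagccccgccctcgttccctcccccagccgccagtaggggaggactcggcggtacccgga
PSMB10, chr16:67936851-67937050, minus strand: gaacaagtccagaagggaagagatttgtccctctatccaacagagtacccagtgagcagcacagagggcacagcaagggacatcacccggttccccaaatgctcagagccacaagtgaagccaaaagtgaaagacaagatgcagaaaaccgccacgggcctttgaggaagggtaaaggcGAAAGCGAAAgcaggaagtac
PSME2, chr14:24146611-24146810, minus strand: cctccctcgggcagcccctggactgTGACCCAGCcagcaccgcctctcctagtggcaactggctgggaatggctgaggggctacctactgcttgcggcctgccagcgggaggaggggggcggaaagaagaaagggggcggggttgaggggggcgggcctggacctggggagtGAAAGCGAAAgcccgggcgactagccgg
PSME4, chr2:53970994-53971193, minus strand: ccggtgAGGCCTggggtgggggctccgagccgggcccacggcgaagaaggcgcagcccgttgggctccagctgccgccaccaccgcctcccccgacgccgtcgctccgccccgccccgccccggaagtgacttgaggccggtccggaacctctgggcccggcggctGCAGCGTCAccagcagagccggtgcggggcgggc

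Motifs were searched on both strands in a window of 300 bases, 250 before and 50 after the start, which was on hand for 41 of the 47 genes and for 10208 of the tested genes. The letters of an interferon-stimulated response element, GAAA, any 2 bases and GAAA again, were in 6 of the 41 windows (14.6%: PSMA4, PSMB4, PSMB10, PSME1, PSME2 and PSMG4) and in 2.75% of those of tested genes. PSMB10 and PSME2 hold the same letters of this element, GAAAGCGAAA, within 30 bases of the start. TAP1 holds 2 overlapping matches on the opposite strand, between its own start and that of PSMB9. The core of the antioxidant response element, TGACNNNGC, which NFE2L1 binds in proteasome promoters, was in 14 of 41 windows (34.1%) and in 15.4% of those of tested genes, and is seen in PSMB9, PSME2 and PSME4 above. AGGCCT, letters of a site described for ZFX, was in 3 of 41 (7.32%: PSMA6, PSMC6 and PSME4) and in 11.2% of those of tested genes. TTCNNNGAA, the gamma-activated site, was in 5 of 41 (12.2%) and in 6.34%. The last 2 motifs read alike on both strands and were counted once a position. A match describes letters in this window and no binding was measured.

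In the alpha ring of the core the SH1 and SH3 arrays lay apart. Of its 8 genes 7 were lower with SH3 and 3 with SH1, each against the mean of the controls, with medians of -0.30 and 0.03. PSMA8, a testis-specific relative of PSMA7, had log2 intensities of 7.91 on SH1 and 6.83 on SH3, against 7.78 on LEN-GFP and 7.74 on SCR. Its SH3 value lay close to the dim limit of 6.70, and with the lowest 50% of genes left out PSMA8 was not tested. PSMA4 had 12.52 on SH1 and 11.93 on SH3, against 12.44 on LEN-GFP and 12.54 on SCR. PSMA3 had 11.31 on SH1 and 10.58 on SH3, against 10.93 on LEN-GFP and 11.20 on SCR. On each of the 3 the SH3 array was the lowest of the 4, while SH1 lay above the control mean. Their knock-down differences were -0.39 for PSMA8, -0.27 for PSMA4 and -0.12 for PSMA3 (limma adjusted p = 0.848, 0.830 and 0.940), and without SH3 they were 0.15, 0.03 and 0.24. The other 5 alpha genes ranged from -0.24 (PSMA7) to 0.04 (PSMA2), and SH1 and SH3 both lay under the controls for PSMA5 and PSMA7.

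The 7 constitutive beta genes stayed near their control level, with a median of -0.03 and a range from -0.21 to 0.02. PSMB2, a structural subunit without a proteolytic site, had log2 intensities of 11.77 on SH1 and 11.63 on SH3, against 11.92 on each control. PSMB1, also structural, had 10.76 on SH1 and 10.42 on SH3, against 10.73 on LEN-GFP and 10.79 on SCR. PSMB2 was lower on both hairpin arrays and PSMB1 on SH3 alone, and their differences were -0.21 (SE 0.09) and -0.18 (SE 0.15). Only PSMB2 and PSMB7 had both hairpin arrays below both controls in this ring.

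The base of the cap held the gene with the lowest difference over all 4 arrays, PSMD2, a value that rests largely on SH3. PSMD2 encodes the scaffold subunit on which ubiquitin receptors and the deubiquitinase USP14 dock. It had log2 intensities of 10.66 on SH1 and 9.85 on SH3, against 10.84 on LEN-GFP and 10.90 on SCR. Both hairpin arrays were below both controls, and SH3 stood at 49.5% of the control level where SH1 stood at 86.2%. The knock-down difference was -0.61 (SE 0.27, 95% interval -1.32 to 0.09, limma adjusted p = 0.797), and without SH3 it was -0.21. PSMD1, the second scaffold of the base, had 10.99 on SH1 and 10.59 on SH3, against 10.94 on LEN-GFP and 11.13 on SCR, and was low on SH3 alone.

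The ATPases of the base, PSMC1, PSMC2, PSMC3, PSMC4 and PSMC6, ranged from -0.18 to 0.03. For PSMC1 and PSMC2 the hairpin arrays both lay under the controls. PSMC4 had log2 intensities of 11.80 on SH1 and 12.23 on SH3, against 12.05 on LEN-GFP and 11.95 on SCR, so that the hairpins lay on either side of the controls. The ubiquitin receptors of the cap differed by -0.18 (ADRM1) and 0.07 (PSMD4), and PSMD4 had 8.85 on SH1 and 8.96 on SH3, against 8.82 on LEN-GFP and 8.84 on SCR. PSMC1 and PSMC6 each had a second probe set, at -0.20 and -0.03, which for PSMC6 went against the sign of the first. The brighter set stood for each gene, and the place on the genome that each set reads was not checked.

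In the mean of the hairpin arrays all 6 genes of the lid were lower, with a median of -0.16 and a range from -0.22 to -0.03. On SH1 alone PSMD12 lay above both controls, and the groups overlapped for PSMD12 and PSMD3. PSMD11, a lid subunit linked to proteasome levels in stem cells, had log2 intensities of 10.96 on SH1 and 11.09 on SH3, against 11.26 on LEN-GFP and 11.23 on SCR. PSMD6, another structural subunit of the lid, had 10.16 on SH1 and 10.04 on SH3, against 10.21 on LEN-GFP and 10.39 on SCR. For each, SH1 and SH3 lay under LEN-GFP and SCR, as for PSMD8 and PSMD14, the deubiquitinase that removes ubiquitin chains from substrates (-0.18, SE 0.10). None of the 6 passed in limma (adjusted p from 0.797 to 0.977).

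**Figure D3:**
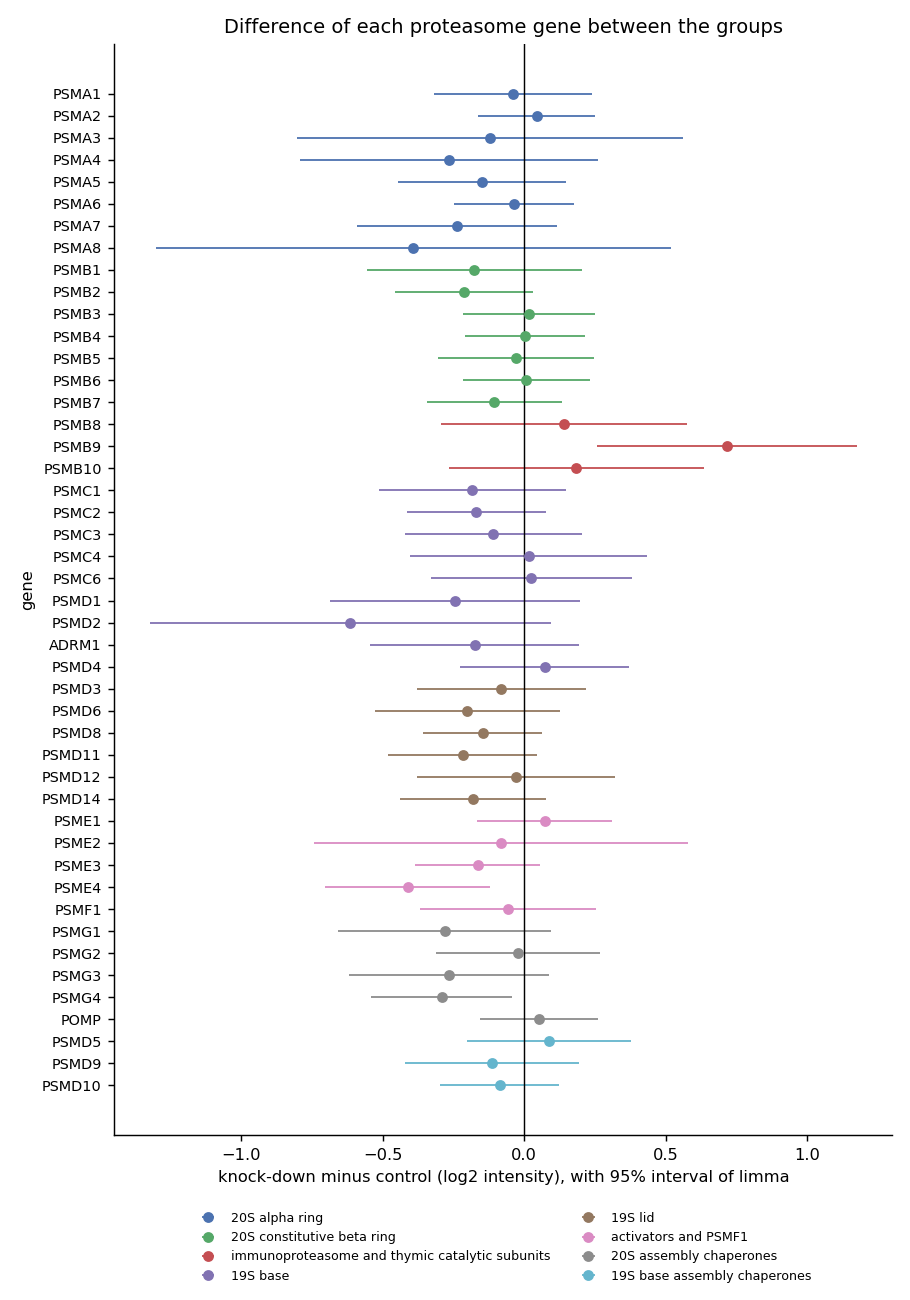
Difference in log2 intensity, knock-down minus control, of each tested proteasome gene (point) with limma's 95% interval (line), coloured by class. The intervals of PSMB9 (0.26 to 1.18), PSME4 (-0.70 to -0.12) and PSMG4 (-0.54 to -0.04) leave out 0 before adjustment for the number of genes.

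Of the alternative caps, PSME4 was lower with both hairpins. It encodes a nuclear activator linked to the degradation of acetylated histones, on chromosome 2 from 53864069 to 53970993. It had log2 intensities of 9.95 on SH1 and 10.06 on SH3, against 10.38 on LEN-GFP and 10.45 on SCR. Both hairpin arrays were below both controls, at 72.4% and 78.1% of the control level, and the controls lay 0.07 apart. The difference was -0.41 (SE 0.11, unadjusted p = 0.0152, limma adjusted p = 0.797). PSME3, the nuclear ubiquitin-independent activator, had 11.90 on SH1 and 11.86 on SH3, against 12.00 on LEN-GFP and 12.08 on SCR, a difference of -0.16 (SE 0.09).

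The interferon-induced activator, a ring of PSME1 and PSME2 that opens the core without ubiquitin, did not shift as one. PSME1 had log2 intensities of 11.70 on SH1 and 11.60 on SH3, against 11.60 on LEN-GFP and 11.56 on SCR. PSME2 had 11.06 on SH1 and 10.32 on SH3, against 10.73 on LEN-GFP and 10.81 on SCR. PSME1 was slightly above both controls on both hairpin arrays, while PSME2 was the highest of the 4 arrays on SH1 and the lowest on SH3. The knock-down differences were 0.07 (SE 0.09) for PSME1 and -0.08 (SE 0.26) for PSME2, and PSME2 stood at 0.29 without SH3. PSMF1, an inhibitor of the core in vitro, differed by -0.06.

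The chaperones that assemble the core had a median of -0.27 over 5 genes. PSMG1 had log2 intensities of 9.90 on SH1 and 9.61 on SH3, against 9.99 on LEN-GFP and 10.09 on SCR. PSMG4 had 7.52 on SH1 and 7.47 on SH3, against 7.73 on LEN-GFP and 7.84 on SCR. Both were lower on both hairpin arrays, by -0.28 (SE 0.15) and -0.29 (SE 0.10, unadjusted p = 0.0293), and so was PSMG3, the partner of PSMG4, by -0.27 (SE 0.14). PSMG2, the partner of PSMG1, and POMP, which matures the core and favours the immune form, differed by -0.02 and 0.05. With the lowest 50% of genes left out PSMG4 was not tested and the median was -0.14.

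Among the chaperones of the base, PSMD9 had log2 intensities of 8.46 on SH1 and 8.45 on SH3, against 8.48 on LEN-GFP and 8.66 on SCR. PSMD5 had 11.04 on SH1 and 10.91 on SH3, against 10.83 on LEN-GFP and 10.95 on SCR. The groups overlapped for PSMD5, while PSMD9 and PSMD10, also known as the oncoprotein gankyrin, were lower on each hairpin array than on either control, with differences of -0.11 and -0.09.

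Each hairpin was then compared with both controls in a limma fit of 3 groups, where a single array is assumed to vary like the control pair. With SH3, 7 of 46 genes passed an adjusted p of 0.05, 1 higher and 6 lower, beside 13.3% of all tested genes (6.33% higher and 7% lower). PSMB9 rose by 0.85 (SE 0.16, adjusted p = 0.00890). PSMD2 fell by 1.01 on the log2 scale (adjusted p = 0.00114), PSMA8 by 0.93 (adjusted p = 0.00275) and PSMA4 by 0.56 (adjusted p = 0.00491). PSMA3 (-0.48, adjusted p = 0.0442), PSME2 (-0.45, adjusted p = 0.0319) and PSMD1 (-0.44, adjusted p = 0.0445) also fell, and each lost its call with no filter, with median-centred arrays or without the intensity trend. By sign 36 of 46 were lower, beside 50.3% of all tested genes, and 15 had an unadjusted p under 0.05 (2 higher and 13 lower), beside 26.3% (12.5% higher and 13.8% lower). In total the called genes were close to the share among all genes. With the settings reported, the lower calls were above their share and the higher call below it. MPO also fell on the SH3 array, by 1.02 on the log2 scale (limma adjusted p = 0.000248), 1 of 7 myeloid markers called. On SH3 the 7 markers had a median of 0.12 against the mean of the controls. ITGAM (0.37), CD14 (0.26), CSF1R (0.21) and CEBPA (0.12) were higher there, and LYZ (-0.13) and SPI1 (-0.01) slightly lower. Their summed intensity, mostly LYZ and MPO, was 39353 on SH1 and 33594 on SH3, against 38976 on LEN-GFP and 39425 on SCR. The part of the myeloid markers in these differences was not tested.

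With SH1, 0 of 46 genes passed (smallest adjusted p = 0.180), where 0.403% of all tested genes did. By sign 30 of 46 were lower, beside 50.2% of all tested genes. The higher genes with an unadjusted p under 0.05 numbered 4, beside 4.57% of all tested genes, and these were PSMB9, PSMB10, PSMB8 and PSME2. Their differences were 0.58 (SE 0.16), 0.39 (SE 0.14), 0.34 (SE 0.14) and 0.29 (SE 0.11). The 4 encode the 3 immune subunits and PSME2 of the interferon-induced activator, and PSME1, its partner, stood at 0.12 (SE 0.10). On the same array the myeloid marker CSF1R rose by 0.96 (SE 0.14, limma adjusted p = 0.0355), 1 of 7 myeloid markers called, and its part in these values was not tested. On the lower side were PSME4 (-0.47, SE 0.12), PSMD11 (-0.28, SE 0.10) and PSMD8 (-0.19, SE 0.09), beside 5.47% of all tested genes.

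In limma's comparison of SH3 minus SH1, 6 of 46 genes passed, 1 higher and 5 lower, beside 8.49% of all tested genes (4.01% higher and 4.48% lower). Each side is a single array and the spread comes from the control pair with 1 residual degree of freedom, so the comparison is of these arrays and cannot tell hairpin from array. By sign 32 of 46 were lower, beside 49.9% of all tested genes. PSMA8 fell by 1.08 on the log2 scale (SE 0.15, adjusted p = 0.00452), PSMD2 by 0.80 (SE 0.13, adjusted p = 0.00934) and PSME2 by 0.74 (SE 0.13, adjusted p = 0.0117) with SH3 relative to SH1. PSMA3 fell by 0.73 (SE 0.15, adjusted p = 0.0229) and PSMA4 by 0.59 (SE 0.10, adjusted p = 0.0107), and both lost the call without the intensity trend. PSMC4 rose by 0.43 (SE 0.11, adjusted p = 0.0447) and lost its call with no filter, with median-centred arrays and without the trend. PSMB8 (-0.40, SE 0.16, adjusted p = 0.188) and PSMB10 (-0.41, SE 0.16, adjusted p = 0.172) did not pass, nor did PSMB9 (0.27, SE 0.18, adjusted p = 0.457).

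**Figure D4:**
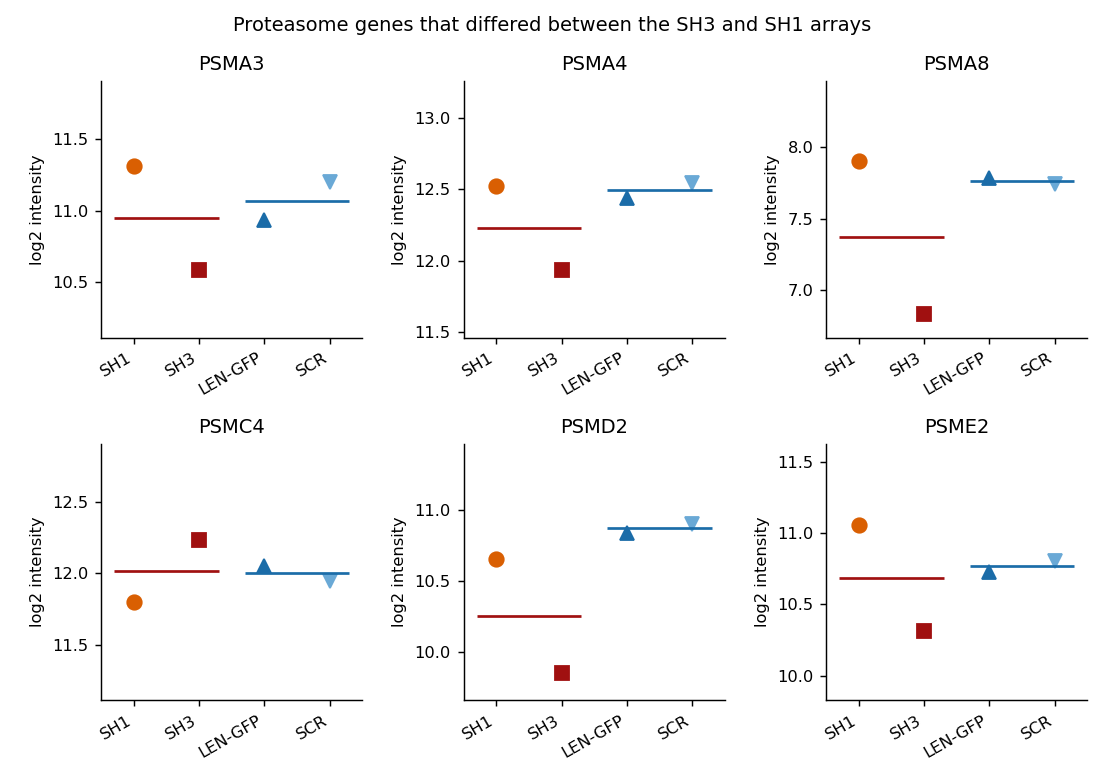
Log2 intensity on each array (ZFX hairpins left, controls right, bars for group means) of the 6 proteasome genes that passed in the comparison of the single SH3 and SH1 arrays. SH3 is the lowest array for PSMA3, PSMA4, PSMA8, PSMD2 and PSME2 and the highest for PSMC4.

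Class medians were also read for each hairpin array. The median difference from the controls with SH1 was 0.39 for the 3 immune subunits, -0.14 for the 15 cap genes and -0.0040 for the 15 constitutive core genes. With SH3 it was -0.02 for the immune subunits, -0.15 for the cap and -0.14 for the core. Without PSMA8 the core stood at -0.0057 with SH1 and -0.13 with SH3. The differences between the arrays in these medians were not tested, and PSMB9 was above the controls on both. All genes tested had medians of -0.00062 with SH1 and -0.0015 with SH3. SCR minus LEN-GFP gave -0.10 for the immune subunits, 0.02 for the cap and 0.03 for the core, beside -0.03 for all genes tested.

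A list of 40 other genes covered the ubiquitin and proteasome pathway and some proteases outside it (LONP1, BLMH, TPP2 and NRDC). Of these 40 genes 35 were analysed. None passed in limma for the knock-down, 13 were higher and 22 lower, and for 11 of them the hairpin arrays both lay under the controls, beside 19% of all tested genes. For 4 of them (NFE2L2, NPLOC4, UBE3C and IPO9) both lay above the controls, beside 18.2% of all tested genes. NFE2L1, the transcription factor that raises proteasome genes when the protease is impaired, had log2 intensities of 10.51 on SH1 and 10.49 on SH3, against 10.90 on LEN-GFP and 10.54 on SCR. It differed by -0.22 (SE 0.15), and SCR lay near the hairpins. LONP1, the protease of the mitochondrial matrix, differed by -0.42 (SE 0.19) and ZFAND2A, a stress-induced partner of the cap, by -0.37 (SE 0.15). BLMH, a cytosolic aminopeptidase that trims peptides, differed by -0.27 (SE 0.25), and ECPAS, which links the cap to the core, by -0.25 (SE 0.11). With 1 array left out at a time LONP1 ranged from -0.61 to -0.22, with the controls 0.39 apart, NFE2L1 from -0.40 to -0.04 and ZFAND2A from -0.52 to -0.21. With SH3, ZFAND2A fell by 0.52 (adjusted p = 0.0207) and BLMH by 0.61 (adjusted p = 0.0174), and BLMH stood at 0.08 with SH1.

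Of the interferon and peptide-loading genes on a list of 17, 10 were tested, and none passed for the knock-down, with 9 higher and 1 lower. NLRC5, IRF9, TAP1 and TAP2 had both hairpin arrays above both controls (4 of 10 genes), beside 18.2% of all tested genes, and none had both below. IRF9, a subunit of the factor that acts downstream of type I interferon, had log2 intensities of 9.61 on SH1 and 9.72 on SH3, against 9.40 on LEN-GFP and 9.20 on SCR, a difference of 0.37 (SE 0.13, unadjusted p = 0.0382). IRF1, which drives the immune subunits after interferon gamma, had 8.67 on SH1 and 8.61 on SH3, against 8.74 on LEN-GFP and 8.53 on SCR, and differed by 0.0029 (SE 0.13). ERAP1, the peptide-trimming enzyme of the endoplasmic reticulum, differed by -0.21 (SE 0.14). With 1 array left out at a time ERAP1 ranged from -0.34 to -0.07 and TAP1 from 0.34 to 0.95. With SH3, TAP1 rose by 0.95 (SE 0.18, adjusted p = 0.0107 in limma), and none of the 10 passed with SH1.

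**Figure D5:**
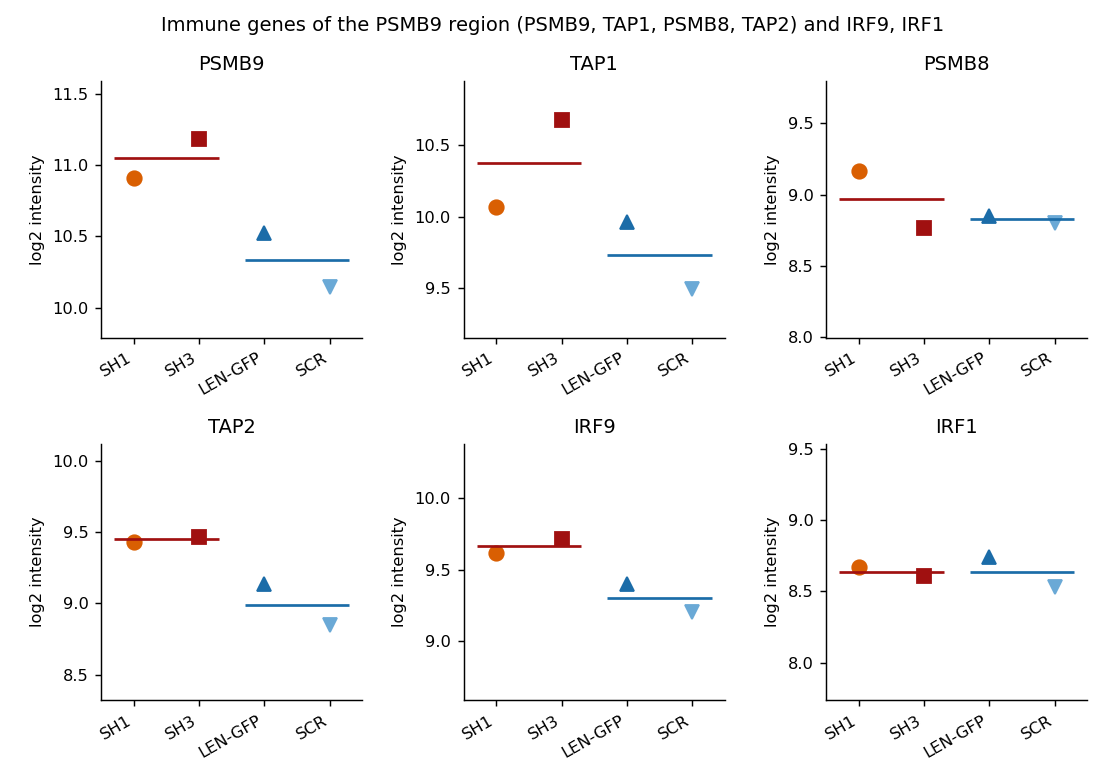
Log2 intensity on each array (ZFX hairpins left, controls right, bars for group means) of PSMB9, TAP1, PSMB8 and TAP2, which lie close together on chromosome 6, and of the interferon-linked factors IRF9 and IRF1. PSMB9, TAP1, TAP2 and IRF9 have both hairpin arrays above both controls, PSMB8 has SH1 alone above them, and IRF1 has both hairpin arrays between the controls.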

How the data were processed

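Total RNA was extracted with Trizol, and 200 ng of it entered Ambion WT biotin labelling, per the labels' protocols. The authors deposited intensity values on a linear scale for 33297 probe sets. The submitters' processing notes name Affymetrix Expression Console 1.1 and RMA; how the linear values were made from RMA output is unstated. RMA makes the arrays alike in distribution and compresses fold changes of dim genes.

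Here log2 was taken of each intensity. The platform annotation gave 19460 probe sets 1 symbol, 1754 several and 12083 none. The dimmest 30% of genes (5525) were dropped, leaving 12892 for linear models in limma 3.58.1 (R 4.3.3), moderated with an intensity trend. Tests were two-sided, adjusted by Benjamini-Hochberg over all these genes, with 2 residual degrees of freedom in the fit of 2 groups and 1 in that of 3. Members and lists were chosen with earlier results of these data known. Values on all arrays are given for the catalytic subunits, PSME1, PSME2, the 2 largest differences of each other class, the widest gaps and every gene called. The fit of 2 groups, not that of 3, was tested on simulated data. Alternatives covered the filter, probe sets, normalization, offset, moderation and each array left out.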

Additional observations from a re-analysis of the deposited data

Results flagged for a closer look

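In limma's comparison of SH3 minus SH1, 6 proteasome genes passed. It sets 1 array against 1, both assumed to vary like the control pair, so hairpin and array cannot be told apart. The differences were -0.73 for PSMA3, -0.59 for PSMA4, -1.08 for PSMA8, -0.80 for PSMD2 and -0.74 for PSME2, and 0.43 for PSMC4. On SH3, PSMA8 (6.83) lay close to the dim limit of 6.70. PSMD2 was lower than both controls on SH1 too, and the other 4 lower genes stood above the control mean on SH1. MPO was also called lower on the SH3 array, and CSF1R higher on the SH1 array, and the part of cell state in these differences was not tested. No group was large enough for a test of single outlying arrays.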

How the results depend on the processing

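No paired analysis was possible because the labels give no replicate numbers that tie an array of one group to an array of the other. With 1 array left out at a time, ZFX ranged from -0.54 to -0.52 and passed only without SH1 (adjusted p = 0.0181). Class medians ranged from -0.30 to 0.033 for the alpha ring, -0.060 to -0.0075 for the constitutive beta ring, -0.023 to 0.39 for the immune subunits, -0.20 to -0.051 for the base, -0.19 to -0.12 for the activators, -0.30 to -0.14 for the core chaperones, -0.11 to -0.028 for the base chaperones and -0.14 to -0.055 for all tested members. Counts for the knock-down ranged from 0 to 1 called higher and 0 to 6 called lower, 0 to 4 higher and 0 to 13 lower at an unadjusted p under 0.05, and 6 to 13 higher and 23 to 30 lower without overlap. Fewer arrays make overlap rarer for every gene: over all tested genes 29.1% to 38.7% were higher and 30.3% to 39.8% lower without overlap. The calls came without SH1, where SH3 stood alone against the controls and 6.27% of all tested genes were called higher and 6.90% lower. The direction turned, with ranges of -0.48 to 0.24 for PSMA3, -0.56 to 0.028 for PSMA4, -0.93 to 0.15 for PSMA8, -0.023 to 0.39 for PSMB10, -0.058 to 0.00020 for PSMB5, -0.060 to 0.076 for PSMB6, -0.059 to 0.34 for PSMB8, -0.20 to 0.23 for PSMC4, -0.45 to 0.29 for PSME2, -0.61 to 0.080 for BLMH and -0.10 to 0.11 for IRF1. PSMB9 (0.53 to 0.90), PSME4 (-0.47 to -0.36), PSMD2 (-1.01 to -0.21) and PSMG4 (-0.35 to -0.24) kept their sign. With the lowest 50% of genes left out, 1 lower gene was left at an unadjusted p under 0.05 and the core chaperones had a median of -0.14, since fewer genes were tested. Median-centred arrays gave 2 higher genes without overlap, and ordinary statistics 0 higher genes at an unadjusted p under 0.05. For SH3, 3 genes were called lower with no filter, with median-centred arrays and without the intensity trend, and 8 with quantile normalization, where 6 were called with the settings reported. For SH3 minus SH1 these 3 settings called 0 genes higher, and the last called 3 lower; the cause was not tested. The mean over probe sets and an offset of 16 left every count as reported, and with quantile normalization the other counts moved by at most 1.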

Other observations

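The control arrays differed from each other on several of the genes above. SCR minus LEN-GFP was -0.38 for PSMB9, -0.46 for TAP1, -0.29 for TAP2 and -0.51 for TAPBP, which links the peptide transporter to class I molecules. It was also -0.36 for NFE2L1 and -0.32 for ADRM1. For PSMB9, TAP1 and TAP2 both hairpin arrays were above LEN-GFP, the higher of the controls, while for TAPBP they lay between the controls, at 12.33 on SH1 and 12.26 on SH3, against 12.44 on LEN-GFP and 11.93 on SCR.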
